A study of Mus musculus with 75 samples.

Results

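Interferon-stimulated genes are the genes that cells switch on after type I interferon binds its receptor. The 35 genes described here were chosen by name, as rows of both deposited count tables, and make up 35 of the 41388 gene rows of each table. They were followed in blood stem and progenitor cells sorted from 8-week-old mice with a conditional deletion of Kmt2c, which encodes a histone methyltransferase of the MLL family. In experiment 1 the populations labelled HSC (haematopoietic stem cells), HPC (haematopoietic progenitor cells), pGM (pre-granulocyte-monocyte) and GMP (granulocyte-monocyte progenitors) came from untreated mice. Their genotypes were Kmt2c f/f; Vav-Cre (ko), Kmt2c f/+; Vav-Cre (het) and wild type (wt), with 4 libraries per group and 48 in all. In experiment 2, HSC and HPC came from ko and wt mice given interleukin 1 (IL-1) at 0.5 ug per mouse for 3 days, or phosphate-buffered saline (PBS). Of its 27 libraries, each HPC group has 3, the HSC wt IL-1 group has 3 and the other HSC groups have 4. Vav-Cre drives the recombinase in blood cells generally, and the wt label carries no Cre, so the deletion and the transgene cannot be told apart between ko and wt, while ko and het both carry Cre. The labels do not say whether each library came from its own mouse, so the spread behind each p-value is that among libraries and may in part be technical.

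Type I interferons signal through the kinases JAK1 and TYK2 to a transcription factor complex that includes STAT2 and IRF9 and binds interferon-stimulated response elements in gene promoters. The products are RNA sensors, RNA-binding translation blockers, enzymes that trigger RNA decay, membrane-acting restriction factors and the ubiquitin-like protein ISG15 with its enzymes. Stem cells of several tissues are known to hold part of this set at a steady level without infection, and interferon and IL-1 are both known to push haematopoietic stem cells out of rest.

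The response element shows in the DNA just upstream of several of these genes. RefSeq promoter sequences (GRCm38.p6) were matched for 25 of the 35 genes, and windows running 250 bases before to 50 bases after the start were searched on both strands for a core of GAAA, any 2 bases and GAAA. It lay in the window of 11 of the 25 genes, or 44.0%, against 3.96% of 27000 other genes. The interferon gamma motif TTCNNNGAA lay in 4 of the 25, or 16.0%, against 9.55% of the others, and matches of the motifs may overlap. The 250 bases before the start of 6 genes follow, in the direction of the gene, with each match to the core in capitals. They are shown because Isg15, Ifit1, Rsad2 and Oas3 have the core and fell at both later steps of differentiation, Bst2 has it and passed at neither step in wt libraries, and Ifi44 has no match but fell among the most.
Isg15: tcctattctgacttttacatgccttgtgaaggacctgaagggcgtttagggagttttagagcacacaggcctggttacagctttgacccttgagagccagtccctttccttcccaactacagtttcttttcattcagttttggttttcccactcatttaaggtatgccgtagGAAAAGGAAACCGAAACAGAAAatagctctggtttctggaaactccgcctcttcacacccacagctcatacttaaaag
Ifit1: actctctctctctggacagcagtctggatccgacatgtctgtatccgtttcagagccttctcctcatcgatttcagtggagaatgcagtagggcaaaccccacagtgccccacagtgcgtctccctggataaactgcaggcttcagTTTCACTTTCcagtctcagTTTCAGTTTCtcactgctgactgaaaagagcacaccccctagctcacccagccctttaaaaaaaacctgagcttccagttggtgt
Rsad2: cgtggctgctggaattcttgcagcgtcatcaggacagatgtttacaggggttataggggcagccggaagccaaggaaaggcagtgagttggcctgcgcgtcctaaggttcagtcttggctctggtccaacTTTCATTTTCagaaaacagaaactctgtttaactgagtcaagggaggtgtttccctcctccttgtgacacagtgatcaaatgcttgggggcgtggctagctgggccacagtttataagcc
Oas3: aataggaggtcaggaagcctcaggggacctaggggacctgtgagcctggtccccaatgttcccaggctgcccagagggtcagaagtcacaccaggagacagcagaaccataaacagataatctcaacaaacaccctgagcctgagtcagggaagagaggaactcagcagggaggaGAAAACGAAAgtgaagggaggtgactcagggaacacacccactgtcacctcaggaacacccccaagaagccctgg
Bst2: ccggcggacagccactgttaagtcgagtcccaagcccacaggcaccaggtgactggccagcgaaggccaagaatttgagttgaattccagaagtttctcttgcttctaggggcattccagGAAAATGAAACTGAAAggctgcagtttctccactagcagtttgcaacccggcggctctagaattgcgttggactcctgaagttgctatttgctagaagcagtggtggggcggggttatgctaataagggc
Ifi44: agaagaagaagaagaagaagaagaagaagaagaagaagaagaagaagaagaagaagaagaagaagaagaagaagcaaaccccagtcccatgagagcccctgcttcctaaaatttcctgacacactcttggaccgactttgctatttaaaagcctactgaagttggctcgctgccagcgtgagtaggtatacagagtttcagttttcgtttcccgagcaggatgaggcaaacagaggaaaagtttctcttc
These stretches lie at chr4:156200819-156201068 (minus strand) for Isg15, chr19:34640639-34640888 (plus strand) for Ifit1 and chr12:26456453-26456702 (minus strand) for Rsad2. Those of Oas3, Bst2 and Ifi44 lie on the minus strand at chr5:120777660-120777909, chr8:71537473-71537722 and chr3:151749911-151750160. In Isg15 the core began at positions -78, -72 and -66 from the start and its copies overlapped. In Ifit1 it began at -104 and -85, in Rsad2 at -120, in Oas3 at -75 and in Bst2 at -130 and -124. A match is a run of letters, not a measured binding site. The search took that exact core alone, so a window with no match may still hold a response element with other letters or spacing.

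Libraries of experiment 1 held 13.3 M to 20.8 M counts (median 16.0 M) and those of experiment 2 held 18.6 M to 42.8 M (median 32.7 M). Levels below are CPM, read counts divided by library size, on a common scale per experiment after scaling by trimmed mean of M values. The Kmt2c level averaged 16.2 ± 2.17 CPM in ko, 36.0 ± 2.67 CPM in het and 51.9 ± 8.14 CPM in wt HSC (SD, n = 4 each), and it was called lower in ko than in wt in each population and treatment except HSC after IL-1. There, the library labelled HSC wt IL-1 replicate 1 held 13.9 CPM of Kmt2c, within the 12.6 to 25.2 CPM of the ko HSC libraries of experiment 2. Results that use that library are also given without it where stated. The summed level of a list of HSC marker genes was 3131 to 4109 CPM in wt HSC, 1347 to 1839 in wt HPC, 807 to 1014 in wt pGM and 200 to 416 in wt GMP. The summed GMP list reached 136853 to 169805 CPM in wt GMP, so a few granule genes took a large share of those libraries. Of 10 genes listed as markers of plasmacytoid dendritic cells, which make type I interferon, Siglech averaged 0.0132 CPM in wt HSC and 0.295 CPM in wt HPC and Klk1 was at 0 in all 4 wt populations, whereas Tcf4 averaged 202 CPM in wt HSC and 340 CPM in wt HPC. In experiment 1, 8 of 16 ko libraries and 0 of 16 het and 0 of 16 wt libraries held under 1 CPM of Y-linked genes. In experiment 2 these were 10 of 14 ko and 4 of 13 wt libraries, so sex-linked RNA is partly tied to the ko genotype in both experiments. In experiment 1, 10 of 16 wt libraries held over 1 CPM of both Xist and Y-linked genes.

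The 35 genes covered a wide span of levels. Per kilobase of exon, Lgals3bp, which encodes a secreted glycoprotein, was the most abundant in experiment 1 with a mean of 166 CPM per kb over the 48 libraries, followed by the membrane tether Bst2 with 134 and Rtp4 with 61.1 CPM per kb. Ifi35, Ifi27l2a and Isg15 followed with 52.8, 38.3 and 35.5 CPM per kb. At the other end were Ifit3 with 1.73, Oas2 with 0.726, Mx2 with 0.237 and Mx1 with 0.175 CPM per kb. These last 4 were not tested in the fit of GMP alone, where 31 of the 35 passed the filter on low counts, and all 35 were tested in the other fits. The interferon genes themselves gave almost no reads: 8 of 21 had any in experiment 1, with 54 reads over 48 libraries, and 10 of 21 in experiment 2, with 109 reads over 27 libraries. None of the 21 passed the filter in any fit.

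The module as a whole was high in HSC and HPC, lower in pGM and lowest in GMP. The mean over the 35 genes of log2(CPM + 1) was 5.31 ± 0.22 in wt HSC, 5.36 ± 0.16 in wt HPC, 4.64 ± 0.13 in wt pGM and 3.38 ± 0.23 in wt GMP (SD, n = 4 each). Wt pGM libraries were all lower than wt HPC libraries, with a difference of -0.72, and wt GMP libraries were all lower than wt pGM libraries, with a difference of -1.26. The HPC and HSC libraries overlapped. The summed level of the 35 genes was 2814 ± 456 CPM in wt HSC, 2801 ± 266 in wt HPC, 1779 ± 136 in wt pGM and 902 ± 128 in wt GMP. In bulk libraries, fewer cells that express a gene and less RNA per cell cannot be told apart.

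**Figure D1:**
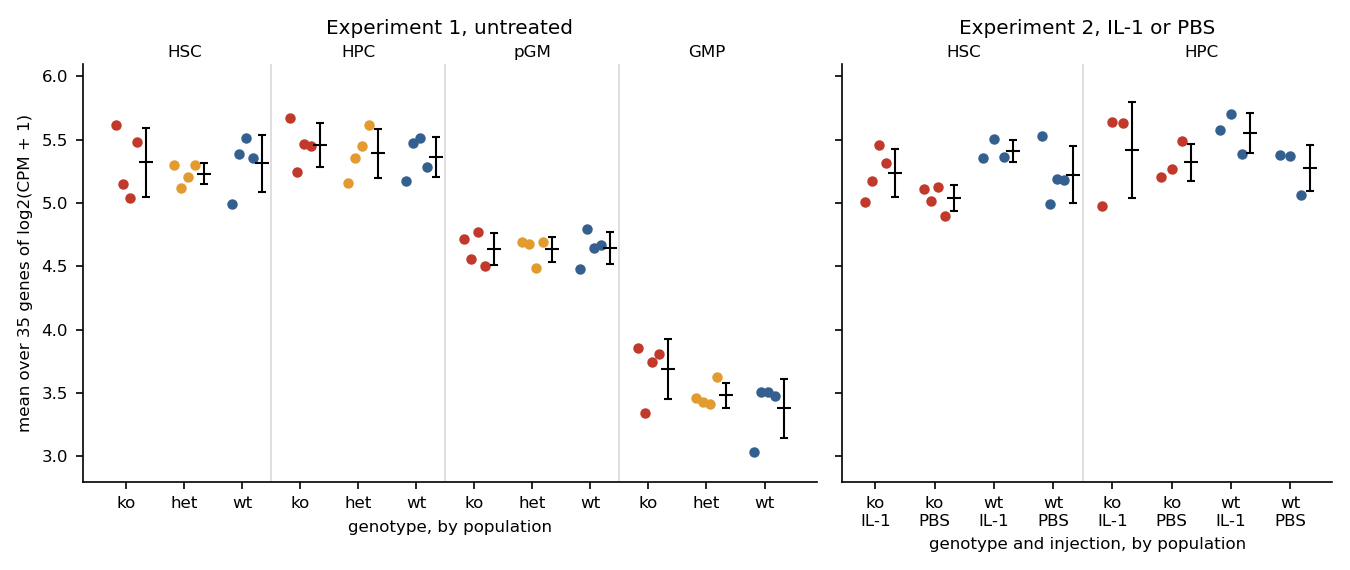
Mean over the 35 genes of log2(CPM + 1), 1 point per library, with the group mean and SD beside the points; the left part shows experiment 1 by population and genotype, the right part experiment 2 by population, genotype and treatment. GMP libraries lie between 3.03 and 3.86, and the lowest HSC or HPC library of experiment 1 lies at 4.99.

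At the step to pGM, the genes moved in 1 direction. Between wt pGM and wt HPC, 16 of 35 genes were lower and 0 were higher by edgeR's quasi-likelihood test at a Benjamini-Hochberg adjusted p under 0.05, where 6.36% of the 15110 genes tested were lower and 5.59% higher. The log2 difference was negative for all 35, with a median of -0.72 against -0.00 over all genes. At the step to GMP, 25 of 35 genes were lower in wt GMP than in wt pGM and 0 were higher, where 18.0% of all genes were lower and 11.0% higher. The 25 include Ifit3 and Oas2, which did not pass the filter on low counts in the fit of GMP alone. The difference was negative for 34 of 35, and the median was -1.21 against -0.11 over all genes. The summed GMP list above rose at the same steps, and its part in the falls was not tested; with another scaling (relative log expression) the medians of the 35 genes moved by -0.0547 to 0.0399 over the comparisons. Of the 11 genes with the promoter core, 8 were lower in pGM than in HPC and 8 in GMP than in pGM. Of the 14 searched genes with no match, 6 were lower at the first of these steps and 11 at the second.

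**Figure D2:**
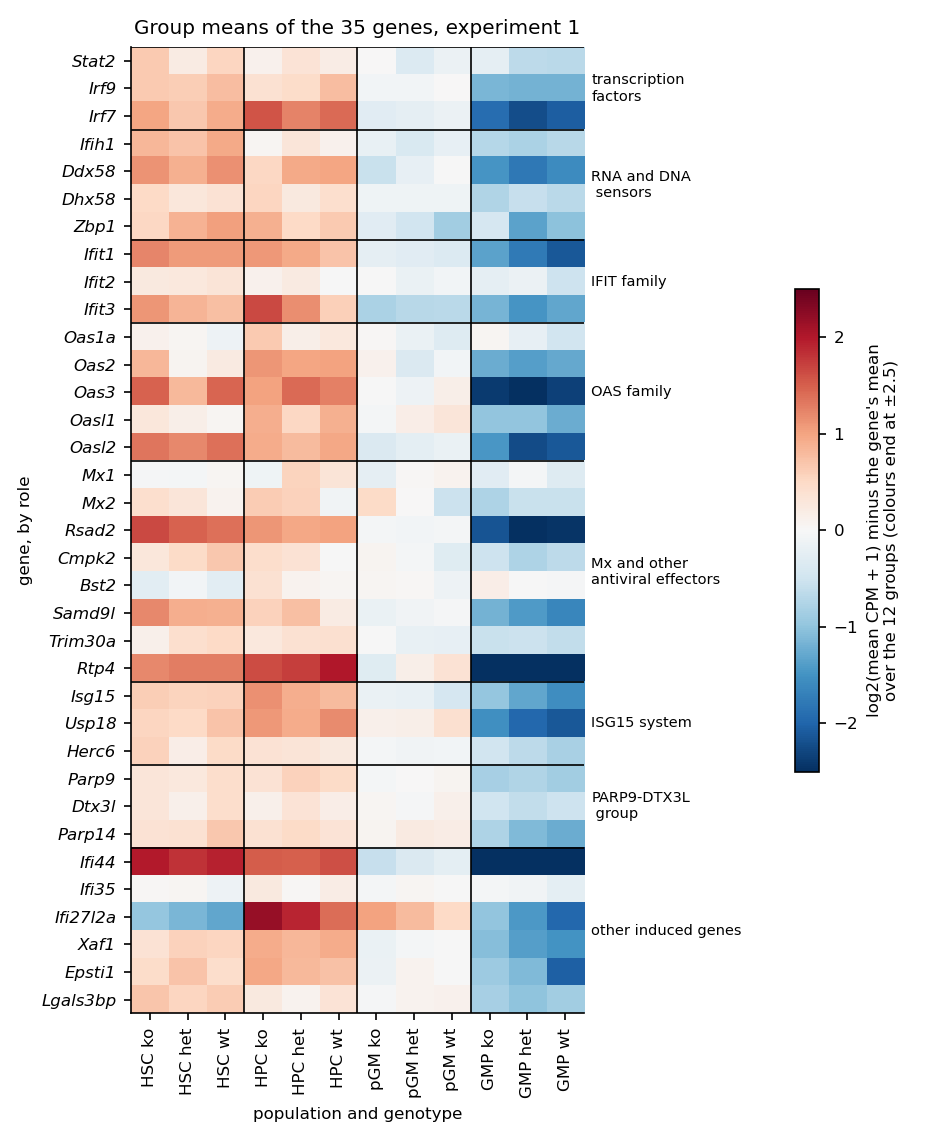
Each row is 1 of the 35 genes, grouped by role, and each column 1 of the 12 groups of experiment 1; colour gives log2(mean CPM + 1) minus the gene's mean over the groups, with the colour scale ending at 2.5 in either direction. Most rows are above their mean in HSC and HPC and below it in GMP.

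Among the transcription factors, Irf7 and Irf9 fell and Stat2 did not pass the test. Irf7, which drives the interferon alpha genes, had 46.6, 90.3, 119 and 68.4 CPM in the wt HSC libraries and 94.3, 136, 133 and 95.6 CPM in wt HPC. In wt pGM it had 33.5, 48.9, 39.7 and 31.2 CPM, and in wt GMP 7.07, 9.61, 13.7 and 7.34 CPM. All 4 pGM libraries were below all HPC libraries and all GMP libraries below all pGM libraries. The log2 difference of Irf7 was -1.56 ± 0.28 (SE) between pGM and HPC (edgeR adjusted p = 9.0e-05) and -1.99 ± 0.29 between GMP and pGM (edgeR adjusted p = 4.8e-07). Irf9, the DNA-binding part of the interferon complex, averaged 255 ± 53.8 CPM in wt HSC, 256 ± 26.2 in HPC, 151 ± 10.4 in pGM and 65.2 ± 14 in GMP (SD, n = 4). It was lower by -0.74 ± 0.19 at the step to pGM (edgeR adjusted p = 0.0071) and by -1.18 ± 0.20 at the step to GMP (edgeR adjusted p = 5.2e-06). Stat2, its partner, averaged 36.9, 28.6, 22.6 and 15.2 CPM in the same order, and neither step passed (edgeR adjusted p = 0.55 and 0.18).

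Among the sensors of foreign nucleic acid, Ddx58 was lower at both steps. Ddx58, which encodes the RNA sensor RIG-I, had 66.4 to 94.1 CPM in wt HSC (median 80.3), 60.3 to 86.5 in HPC (median 69.4), 31.6 to 37.5 in pGM (median 36.0) and 7.74 to 17.8 in GMP (median 9.82). Its differences were -0.99 ± 0.23 and then -1.62 ± 0.24 on the log2 scale (edgeR adjusted p = 0.0028 and 7.7e-07). Zbp1, a sensor of Z-form nucleic acid, had 13.4, 16.7, 14 and 11.4 CPM in wt HPC and 2.56, 5.87, 3.79 and 4.51 CPM in pGM. It passed at that step and not at the next, with -1.70 ± 0.25 between pGM and HPC (edgeR adjusted p = 4.5e-06), against -0.18 ± 0.26 between GMP and pGM (edgeR adjusted p = 0.64). Ifih1, which encodes the RNA sensor MDA5, was lower in GMP than in pGM by -0.49 ± 0.18 (edgeR adjusted p = 0.032), and Dhx58, a regulator of both RNA sensors, passed at neither step. The differences between steps were not tested, and het libraries gave other calls: there Zbp1 was lower at both steps, by -1.08 ± 0.25 and -1.04 ± 0.26 (edgeR adjusted p = 0.0016 and 0.0018). In het libraries Ifih1 was lower at the step to pGM, by -0.70 ± 0.17 (edgeR adjusted p = 0.0038), and did not pass at the step to GMP, with -0.39 ± 0.18 (edgeR adjusted p = 0.093).

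The IFIT family, whose products bind viral RNA and block its translation, held 2 genes, Ifit1 and Ifit3, that fell at both steps, and Ifit2, which passed at neither. Ifit1 had 18.5, 26.7, 31.4 and 29.3 CPM in wt HSC and 16.5, 21.1, 23.9 and 20.1 CPM in HPC. It had 8.45, 11.4, 8.83 and 8.82 CPM in pGM and 1.61, 1.18, 3.38 and 1.93 CPM in GMP. The libraries of HPC, pGM and GMP did not overlap, and the log2 difference was -1.09 ± 0.33 at the step to pGM and -2.18 ± 0.37 at the step to GMP (edgeR adjusted p = 0.022 and 7.6e-06). Ifit3 averaged 3.71 ± 1.22 CPM in HPC, 0.943 ± 0.75 in pGM and 0.264 ± 0.333 in GMP. Ifit2 averaged 22.1 ± 3.90, 21.4 ± 2.82 and 15.3 ± 4.91 CPM there. Ifit3 did not pass the filter on low counts in the fit of GMP alone. Its call at the step to GMP comes from the fit of all 48 libraries, where levels in other populations count toward the filter. It was not among the genes lower at that step in all 3 genotypes. Reads of Ifit3 and its close copy Ifit3b may be counted for either.

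The OAS family makes the oligoadenylate messenger that activates RNase L. In pGM against HPC, 3 of 5 members were lower (6.36% of all genes), and in GMP against pGM 4 of 5 (18.0% of all genes). The 4 include Oas2, which did not pass the filter on low counts in the fit of GMP alone. Oasl2, the most abundant by CPM, had 143, 216, 252 and 212 CPM in wt HSC and 113, 163, 195 and 152 CPM in HPC. It had 50.4, 74.5, 85.3 and 68.3 CPM in pGM and 12.3, 18.3, 19.3 and 19.9 CPM in GMP, with no overlap between neighbours from HPC on. Its log2 differences were -1.13 ± 0.25 and -1.97 ± 0.26 (edgeR adjusted p = 0.0014 and 5.5e-08). Oas3 averaged 52.8 ± 15.2 CPM in HSC, 46.1 ± 11.8 in HPC, 20.7 ± 3.02 in pGM and 2.90 ± 1.66 in GMP. Oas1a, named here after its values were seen, did not pass at the last step: it averaged 34.4 ± 7.14 CPM in GMP and 38.8 ± 4.36 CPM in pGM, with a log2 difference of -0.15 ± 0.16 (edgeR adjusted p = 0.54). Oas1a and Oas1g are near-identical and may share reads.

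The antiviral effectors held the steepest fall of the 35 genes at the step to GMP. Rtp4, an interferon-induced gene known in mouse to damp the response, had 132, 180, 222 and 185 CPM in wt HSC and 297, 363, 276 and 249 CPM in HPC. It had 75, 120, 86.8 and 98.7 CPM in pGM and 3.37, 5.12, 6.59 and 4.25 CPM in GMP. Its log2 difference between GMP and pGM was -4.27 ± 0.27 (edgeR adjusted p = 6.0e-17), the smallest p of the 35 genes at that step, after -1.62 ± 0.23 at the step before (edgeR adjusted p = 2.6e-06). Rtp4 overlaps Masp1 over 525 bases. Rsad2, which encodes viperin, an enzyme that makes a chain-ending nucleotide, had 37.0, 39.5, 43.8 and 42.5 CPM in HPC. It had 15.7, 27, 20.4 and 13.7 CPM in pGM and 2.57, 1.89, 3.54 and 3.17 CPM in GMP. It fell at both steps, by -1.06 ± 0.22 and -2.75 ± 0.24 (edgeR adjusted p = 0.00055 and 1.5e-12), while its neighbour Cmpk2 passed at neither.

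Bst2, which encodes tetherin and was singled out here after its values were seen, passed at no wt step, although its libraries did not all overlap. It had 103, 111, 104 and 83.4 CPM in wt HSC and 119, 145, 118 and 118 CPM in HPC. It had 108, 110, 106 and 114 CPM in pGM and 112, 108, 135 and 118 CPM in GMP. All 4 wt HPC libraries lay above all wt HSC and all wt pGM libraries, with log2 differences of 0.32 ± 0.13 between HPC and HSC and -0.16 ± 0.13 between pGM and HPC (edgeR adjusted p = 0.056 and 0.44). The pGM and GMP libraries overlapped, with 0.13 ± 0.13 (edgeR adjusted p = 0.45). In ko libraries Bst2 was higher in HPC than in HSC, by 0.67 ± 0.13 (edgeR adjusted p = 5.1e-05), and did not pass at the later steps, with -0.32 ± 0.13 and 0.13 ± 0.13 (edgeR adjusted p = 0.086 and 0.51). Trim30a, a member of the TRIM family, had 63.4, 72.1, 71.2 and 74.4 CPM in wt GMP and 78.9, 106, 103 and 86.0 CPM in wt pGM, a difference of -0.39 ± 0.13 (edgeR adjusted p = 0.022). Mx1 and Mx2, the dynamin-like GTPases, averaged at most 1.05 CPM in each wt population and passed at no step.

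Of the ISG15 system, 3 of 3 members were lower at the last step, where 18.0% of all genes were lower. Isg15 had 37.3, 47.3, 39.8 and 36.6 CPM in wt HPC and 13.7, 20.2, 16.2 and 17.0 CPM in wt pGM. In wt GMP it had 7.31, 5.99, 9.14 and 5.95 CPM, below every pGM library. Its log2 differences were -1.24 ± 0.21 and -1.21 ± 0.22 (edgeR adjusted p = 4.8e-05 and 2.2e-05). Usp18, which removes ISG15 from proteins and also shuts off the receptor, had 35.9, 46.7, 60.5 and 55.6 CPM in pGM and 3.61, 9.92, 12.4 and 5.49 CPM in GMP. It was lower in GMP by -2.63 ± 0.31 (edgeR adjusted p = 4.0e-09), and Herc6, the main ISG15 ligase of mouse, by -0.78 ± 0.21 (edgeR adjusted p = 0.0035). Neither passed between pGM and HPC.

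Parp9, Dtx3l and Parp14 act on proteins and chromatin through ADP-ribosylation and ubiquitin. Of the 3, 0 were lower at the step to pGM, with differences of -0.39, -0.02 and -0.14 in that order. At the step to GMP 3 were lower. Of all genes 6.36% were lower at the first of these steps and 18.0% at the second. Parp14 averaged 21.2 ± 6.57 CPM in wt pGM and 7.24 ± 1.26 CPM in wt GMP. Its difference was -1.52 ± 0.25, and those of Parp9 and Dtx3l were -0.94 ± 0.22 and -0.63 ± 0.20 (edgeR adjusted p = 5.2e-06, 0.00076 and 0.015). In ko libraries Dtx3l did not pass at that step, with -0.53 ± 0.20 (edgeR adjusted p = 0.055). Parp9 and Dtx3l lie on opposite strands and overlap over 682 bases, and strand was not stated, so part of their reads cannot be told apart.

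Of the other 6 induced genes, 3 were lower in pGM (6.36% of all genes) and 5 in GMP (18.0% of all genes). Ifi44, which encodes a cytoplasmic protein, had 45.4, 81.6, 63.6 and 57.9 CPM in wt HPC and 16.6, 16.2, 13.5 and 19.9 CPM in pGM. It had 0.321, 1.65, 1.4 and 0.928 CPM in GMP. The differences were -1.89 ± 0.30 and -3.91 ± 0.37 (edgeR adjusted p = 2.0e-05 and 1.7e-11), so the fall to GMP was second in size to that of Rtp4 among the genes called. Epsti1 had 40.5, 54.5, 53.0 and 44.9 CPM in pGM and 7.87, 11.8, 12 and 12 CPM in GMP, a difference of -2.12 ± 0.18 (edgeR adjusted p = 5.5e-13). Xaf1, known as a partner of the apoptosis inhibitor XIAP, had 24.2, 41.0, 33.8 and 36.0 CPM in pGM and 11.2, 11.5, 12.5 and 10.9 CPM in GMP, a difference of -1.52 ± 0.20 (edgeR adjusted p = 5.4e-08). Lgals3bp averaged 241 ± 44.7 CPM in GMP and 475 ± 32.2 CPM in pGM. Ifi35, also singled out after its values were seen, averaged 76.2 ± 8.86 CPM in GMP and 90.1 ± 10.1 CPM in pGM and did not pass (edgeR adjusted p = 0.21).

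**Figure D3:**
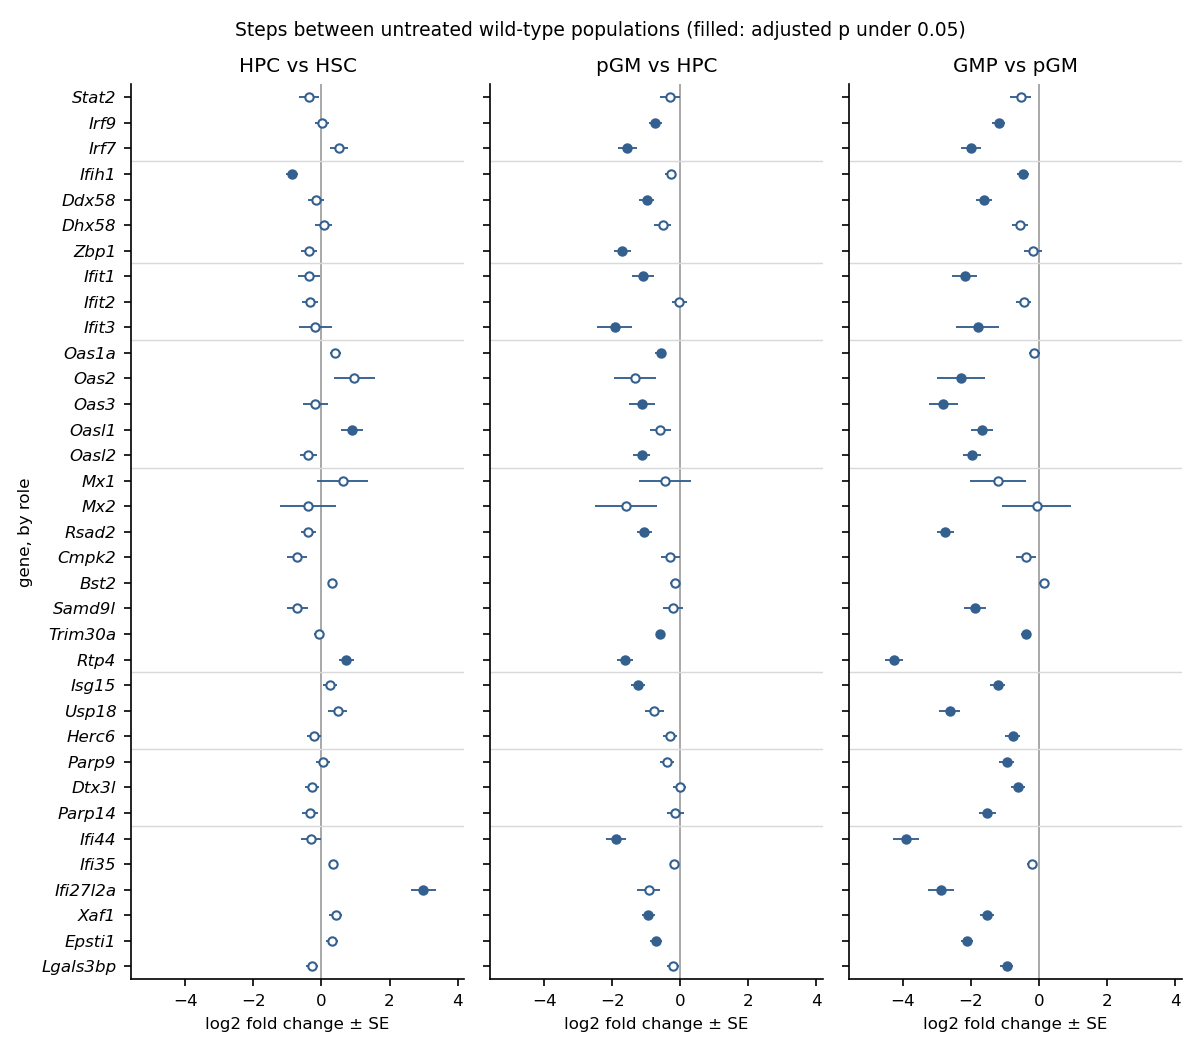
Log2 difference with its SE for each of the 35 genes at 3 steps in wt libraries, HPC minus HSC, pGM minus HPC and GMP minus pGM; filled points have an adjusted p under 0.05. At the step to GMP 25 filled points lie below 0 and none above, and at the step to HPC 3 lie above and 1 below.

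Between HPC and HSC few of the set were called, and Ifi27l2a had the largest difference. In wt libraries 3 of 35 genes were higher in HPC, where 12.5% of all genes were higher, and 1 was lower, where 10.2% were lower. With relative log expression scaling 3 were higher and 2 lower. The median difference was -0.16 against -0.02 over all genes, with 16 positive and 19 negative. Without wt HPC replicate 2 or wt HSC replicate 1 the calls numbered 2, and without wt HSC replicate 2 they numbered 7. Ifi27l2a, which encodes a small membrane protein, had 30.2, 42.0, 24.0 and 27.4 CPM in wt HPC and 2.56, 3.46, 4.2 and 5.53 CPM in wt HSC, with no overlap. Its difference was 2.99 ± 0.36 (edgeR adjusted p = 1.9e-08), about the size of its later fall of -2.89 ± 0.38 between GMP and pGM (edgeR adjusted p = 6.0e-08). Rtp4 was higher in HPC by 0.73 ± 0.23 (edgeR adjusted p = 0.015) and Oasl1, known in mouse to restrain Irf7, by 0.89 ± 0.31 (edgeR adjusted p = 0.033). Ifih1 ran the other way, with 24.6, 25.9, 36.2 and 29.5 CPM in HPC and 40.0, 60.6, 59.3 and 53.4 CPM in HSC, a difference of -0.87 ± 0.17 (edgeR adjusted p = 0.00018). Ifi27l2a may share reads with its neighbour and close copy Ifi27l2b.

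Ifi27l2a and Ifih1 were called in the same directions in experiment 2, whose libraries are separate, and the Ifih1 call was near the threshold. After PBS, wt HPC held 32.3, 22.9 and 9.78 CPM of Ifi27l2a and wt HSC 3.31, 0.791, 4.43 and 3.78 CPM, a difference of 2.79 ± 0.47 (edgeR adjusted p = 0.00011). Ifih1 had 36.0, 60.5 and 39.7 CPM in HPC and 82.4, 82.8, 70.6 and 53.4 CPM in HSC, with overlap, and a difference of -0.68 ± 0.23 (edgeR adjusted p = 0.045). These were the only calls among the 35 genes: 1 higher, where 6.46% of all genes were higher, and 1 lower, where 7.36% were lower. The calls numbered 1 without wt HPC replicate 1 or 3 or wt HSC replicate 1, 2 or 3, and 2 without any other. The call lost was that of Ifih1 (edgeR adjusted p = 0.070 to 0.22). It was also lost with no filter on low counts (0.076), with the contrast's groups alone (0.067) and in ko libraries (0.13). In untreated het libraries Ifih1 did not pass between HPC and HSC, with -0.43 ± 0.17 (edgeR adjusted p = 0.066).

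The same steps were taken in het and ko libraries after the wt results were seen. These contrasts use no wt library, but all libraries of the experiment, wt included, set the filter, scaling and spread of the fit. The overlaps with the wt calls are therefore not fully separate. Between GMP and pGM, 25 genes were lower in het libraries, where 16.5% of all genes were lower, and 23 of the 25 wt genes were among them. In ko libraries 23 genes were lower, where 12.8% of all genes were, and 22 of the wt genes were among them. Between pGM and HPC, 18 genes were lower in het libraries (8.82% of all genes) and 16 in ko libraries (7.26%), and 0 were higher in either. Lower in all 3 genotypes were 20 genes at the step to GMP and 12 at the step to pGM, and Ddx58, Epsti1, Ifi44, Ifit1, Irf7, Isg15, Oasl2, Rsad2, Rtp4 and Xaf1 were in both groups of genes. The shares of all genes that were lower in all 3 genotypes, or in wt and 1 other genotype, were not computed. These overlaps therefore cannot be set against them. The median step to GMP was -1.19 in het and -0.87 in ko libraries. Between HPC and HSC, 1 gene was higher and 0 lower in het libraries (12.2% and 10.8% of all genes), and 6 were higher and 3 lower in ko libraries (15.9% and 13.6%). Ifi27l2a was higher in all 3 genotypes, by 3.29 ± 0.37 in het and 3.39 ± 0.37 in ko. In ko libraries after PBS it was again higher, by 2.04 ± 0.46, as the only call (8.26% of all genes higher, 8.20% lower).

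Other genes of the pathway changed in both directions. Of 12 receptors and transducers tested in wt GMP against wt pGM, 5 were lower and 1 higher, where 18.0% of all genes were lower and 11.0% higher. That list includes the members Stat2 and Irf9, and Irf9 is among those lower. Jak1, the shared kinase, was lower by -1.21 ± 0.14 (edgeR adjusted p = 2.8e-09), whereas Ifngr1, a chain of the interferon gamma receptor, averaged 1129 ± 138 CPM in GMP and 324 ± 15.4 CPM in pGM, a difference of 1.83 ± 0.12 (edgeR adjusted p = 5.2e-16). Among 9 interferon regulatory factors, a list that includes the members Irf7 and Irf9, 6 were lower and 0 higher in GMP than in pGM, against those same shares. In pGM against HPC, 5 were lower and 1 higher, where 6.36% of all genes were lower and 5.59% higher. The higher one, Irf8, which directs monocyte and dendritic cell fates, averaged 301 ± 80.7 CPM in pGM and 40.9 ± 18.3 CPM in HPC, a difference of 2.91 ± 0.38 (edgeR adjusted p = 5.8e-07).

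The gamma-induced GTPases and chemokines, which defend against intracellular microbes, were called lower more often than higher at each step. Of 20 tested, 8 were lower and 0 higher in wt HPC than in wt HSC, where 10.2% of all genes were lower and 12.5% higher. In pGM against HPC, 9 were lower and 1 higher (6.36% and 5.59% of all genes), and in GMP against pGM 14 were lower and 1 higher (18.0% and 11.0%). Iigp1, an immunity-related GTPase, averaged 161 ± 34.8 CPM in HSC, 63.4 ± 7.93 in HPC, 14.1 ± 5.36 in pGM and 0.744 ± 0.592 in GMP. Its differences were -1.34 ± 0.33, -2.14 ± 0.35 and -4.22 ± 0.45 (edgeR adjusted p = 0.0025, 2.4e-05 and 4.6e-10). Gbp2, a guanylate-binding protein, averaged 110 ± 18.0, 81.1 ± 8.24, 45.9 ± 9.63 and 13.7 ± 1.77 CPM in the same order. The median over the list between HPC and HSC was -0.45, and 5 of 20 were lower there after PBS in experiment 2, where 7.36% of all genes were lower. Of 49 further type I induced genes, 12 were lower and 1 higher in pGM than in HPC, and 24 were lower and 3 higher in GMP than in pGM, against the same shares of all genes. Ly6a, which encodes the stem cell antigen used in sorting, was lower by -3.17 ± 0.24 and -3.22 ± 0.26 (edgeR adjusted p = 3.6e-13 and 1.1e-13), and a gate on it would set part of that difference.

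Markers of cells that could carry interferon-induced RNA also differed between populations. The summed level of 10 plasmacytoid dendritic cell genes, a list that includes Bst2 and Irf8, was 288 to 344 CPM in wt HSC, 522 to 623 in HPC, 602 to 762 in pGM and 486 to 578 in GMP. In GMP against pGM, 6 of 9 tested were lower and 0 higher, where 18.0% of all genes were lower and 11.0% higher. The summed level of 7 monocyte genes was 54.6 to 168 CPM in wt HSC, 89.7 to 112 in HPC, 659 to 1046 in pGM and 4242 to 4645 in GMP. Their part in the steps of the 35 genes was not tested. Wt HSC libraries held 21.3 to 2675 CPM of 8 neutrophil genes, with a median of 70.5 CPM.

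Of the 35 interferon-stimulated genes, edgeR called 0 between ko and wt in untreated HSC and HPC. In untreated HSC, 0 of 35 were called between ko and wt, where 1.78% of all genes were called, and the median difference was 0.02. At an unadjusted p under 0.05 there were 2. The smallest p was that of Trim30a, with 128, 108, 115 and 118 CPM in ko and 150, 142, 169 and 152 CPM in wt, which did not overlap. Its difference of -0.39 ± 0.12 did not pass (edgeR adjusted p = 0.14). In HPC, 0 of 35 were called between ko and wt (1.1% of all genes) and 5 had an unadjusted p under 0.05; DESeq2 called 1. Ifit3 had 15, 5.57, 8.25 and 6.06 CPM in ko HPC and 3.89, 3.41, 5.23 and 2.30 CPM in wt HPC, with a difference of 1.24 ± 0.36 that did not pass in edgeR (adjusted p = 0.14). The module mean was 5.32 ± 0.27 in ko, 5.23 ± 0.09 in het and 5.31 ± 0.22 in wt HSC, and 5.46 ± 0.17, 5.39 ± 0.19 and 5.36 ± 0.16 in ko, het and wt HPC, with overlap throughout.

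In pGM, Rtp4 was lower in ko. It had 68.0, 56.1, 62.4 and 50.6 CPM in ko, 90.8, 88.6, 69.3 and 78.3 CPM in het and 75, 120, 86.8 and 98.7 CPM in wt. The ko libraries lay below all het and all wt libraries. The ko minus wt difference was -0.66 ± 0.14 (edgeR adjusted p = 0.020), and ko minus het was -0.44 ± 0.14 (edgeR adjusted p = 0.28). This was 1 call of 35, where 1.94% of all genes were called, and the median over the 35 was -0.06. The call was lost with a covariate of Y-linked expression (edgeR adjusted p = 0.080), in the fit of all libraries (0.23) and without ko replicate 2, 3 or 4 or wt replicate 2 or 4 (0.050 to 0.082). Among the other type I induced genes, Oas1g was higher in ko pGM by 1.48 ± 0.31 (edgeR adjusted p = 0.017), and Ifi47 and Shisa5 were lower by -0.41 ± 0.10 and -0.40 ± 0.10 (edgeR adjusted p = 0.044 and 0.049).

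In GMP, Epsti1 was higher in ko. It had 36.3, 22.2, 18.4 and 24.1 CPM in ko, 29.4, 22.2, 16.7 and 19.5 CPM in het and 7.87, 11.8, 12 and 12 CPM in wt. All ko and all het libraries lay above all wt libraries. The ko minus wt difference was 1.22 ± 0.24 (edgeR adjusted p = 0.033), the only call among 31 genes tested, where 0.555% of all genes were called. The het minus wt difference was 1.00 ± 0.24 and did not pass in the fit of GMP libraries (edgeR adjusted p = 0.97), but passed in the fit of all 48 libraries (edgeR adjusted p = 0.0065). In HSC, Epsti1 had 58.7, 71.0, 72.5 and 63.9 CPM in ko and 63.0, 66.1, 72.5 and 62.5 CPM in wt. The ko minus wt difference was larger in GMP than in HSC by 1.19 ± 0.24 (edgeR adjusted p = 0.013), again the only call, where 0.390% of all genes were called; without ko GMP replicate 2 or 4 or wt GMP replicate 3 the calls numbered 2, and DESeq2 gave 3. That call was lost in the fit of the contrast's 4 groups alone (edgeR adjusted p = 0.077). The call in GMP was lost without ko replicate 1 or 4 or without any 1 of the 4 wt replicates (edgeR adjusted p = 0.076 to 0.13), with the Y-linked or Xist covariate (0.19 and 0.061) and with replicate number as a block (0.081).

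Most of the other genes leaned the same way in ko GMP without passing. The ko minus wt difference was positive for 28 of 31 genes and for 54.4% of all genes, with a median of 0.37 against 0.03 over all genes, and 7 of 31 had an unadjusted p under 0.05, against 9.32% of all genes. After Epsti1 these were led by Rtp4 and Ifi27l2a, with 1.24 ± 0.34 and 1.27 ± 0.37 (edgeR adjusted p = 0.16 and 0.19). The module mean was 3.86, 3.34, 3.75 and 3.81 in ko GMP and 3.46, 3.43, 3.41 and 3.62 in het GMP. In wt GMP it was 3.03, 3.51, 3.51 and 3.48, so ko and wt overlapped through ko replicate 2. The ko GMP replicates 1 and 4, with the highest module means, held 0.274 and 0.717 CPM of Y-linked genes, ko replicates 2 and 3 held 204 and 189 CPM, and the wt libraries held 134 to 200 CPM. In a fit of the 12 GMP libraries with the groups kept, the coefficient on Y-linked expression was negative for 24 of 31 genes. It was positive for 47.6% of all genes. The same ko libraries hold most of the spread of Y-linked expression in that fit, so this is not a separate observation. The 8 neutrophil genes summed to 71.3 to 358 CPM in ko GMP and 239 to 1052 CPM in wt GMP, with 1 of 8 called lower, and the 7 monocyte genes to 2171 to 4573 CPM in ko and 4242 to 4645 CPM in wt, with 1 of 7 called lower. The plasmacytoid dendritic cell list summed to 410 to 844 CPM in ko and 486 to 578 CPM in wt, with 0 of 4 tested called and Siglech, Klk1 and Pacsin1 at 0 in ko. Of all genes, 0.356% were called lower and 0.199% higher in ko than in wt GMP. The part of these marker genes in the difference was not tested.

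**Figure D4:**
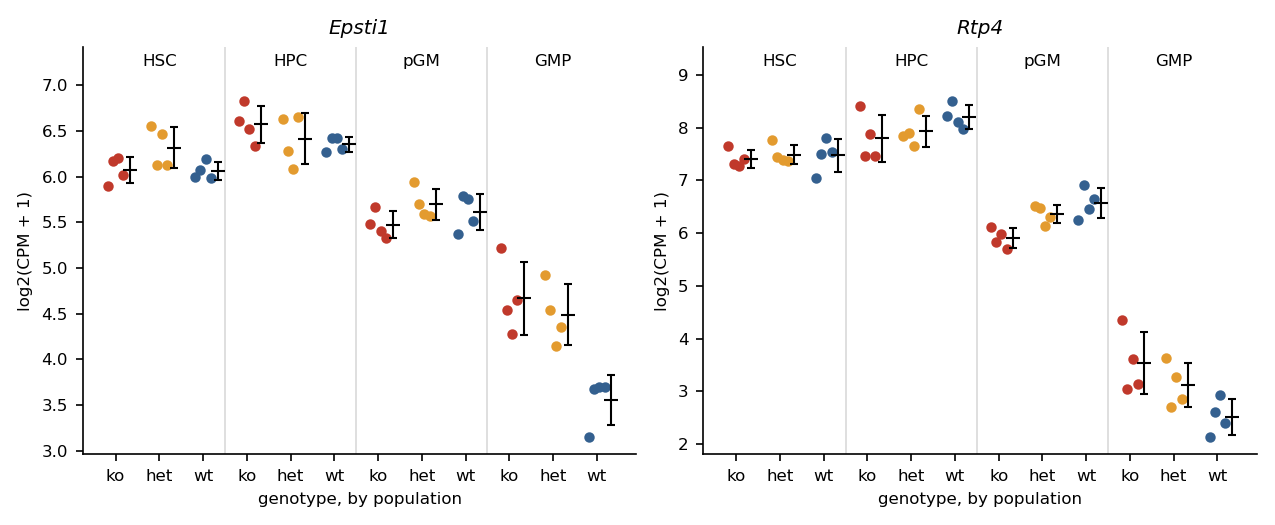
Log2(CPM + 1) of Epsti1 and Rtp4 in each library of experiment 1, by population and genotype. For Epsti1 the ko and het GMP libraries lie above the wt GMP libraries, and for Rtp4 the ko pGM libraries lie below the het and wt pGM libraries.

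Between het and wt, edgeR called 0 of the members tested in the fits by population in HSC, HPC, pGM and GMP, where 0.00724%, 0.00753%, 0.0155% and 0.00828% of all genes were called, and in each of the 4 only 1 member had an unadjusted p under 0.05. The fit of all 48 libraries called Epsti1 in GMP. Between ko and het, edgeR called 0 in HSC (0.326% of all genes), HPC (0.196%), pGM (0.564%) and GMP (0.0166%), with 2, 2, 1 and 3 at an unadjusted p under 0.05. The smallest p of these was that of Zbp1 in GMP, with a ko minus het difference of 1.17 ± 0.28 (edgeR adjusted p = 0.34). It passed in DESeq2 (adjusted p = 0.030) and in the fit of all 48 libraries (edgeR adjusted p = 0.035). By edgeR the ko effect differed between HPC and HSC, and between pGM and HSC, for 0 of the 35 at the threshold (0.232% and 0.218% of all genes called), with 2 and 3 at an unadjusted p under 0.05. With limma voom, Zbp1 passed for pGM minus HSC (1.31, adjusted p = 0.045).

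In edgeR's fit with the filter on low counts and no replicate block, each of the 35 genes stayed short of the threshold after IL-1. This held in HSC and in HPC, although most differences were positive. With replicate number as a block Mx2 passed in wt HPC (edgeR adjusted p = 0.032). In HSC edgeR called 0 of 35 in ko, where 0.212% of all genes were called, and 0 of 35 in wt (0.200%). In HPC the counts were 0 of 35 in ko (0.433%) and 0 of 35 in wt (0.947%). Members with an unadjusted p under 0.05 numbered 3 in ko HSC, 2 in wt HSC, 1 in ko HPC and 5 in wt HPC, against 8.79%, 7.82%, 6.86% and 10.1% of all genes. Differences were positive for 25, 26, 28 and 29 of the 35 in the same order, with medians of 0.21, 0.17, 0.14 and 0.21, against medians over all genes of -0.01, 0.03, 0.00 and -0.01. In all 4 responses 16 genes had a positive difference and 0 a negative one, and the 5 OAS genes were among the 16. Over all genes 48.9%, 52.7%, 50.4% and 48.8% of differences were positive, in the order above. The share of all genes positive in all 4 responses was not computed, so the 16 cannot be set against it. Without the library labelled HSC wt IL-1 replicate 1, 27 of 35 were positive in wt HSC and 2 had an unadjusted p under 0.05. The 16 were not counted again without it.

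**Figure D5:**
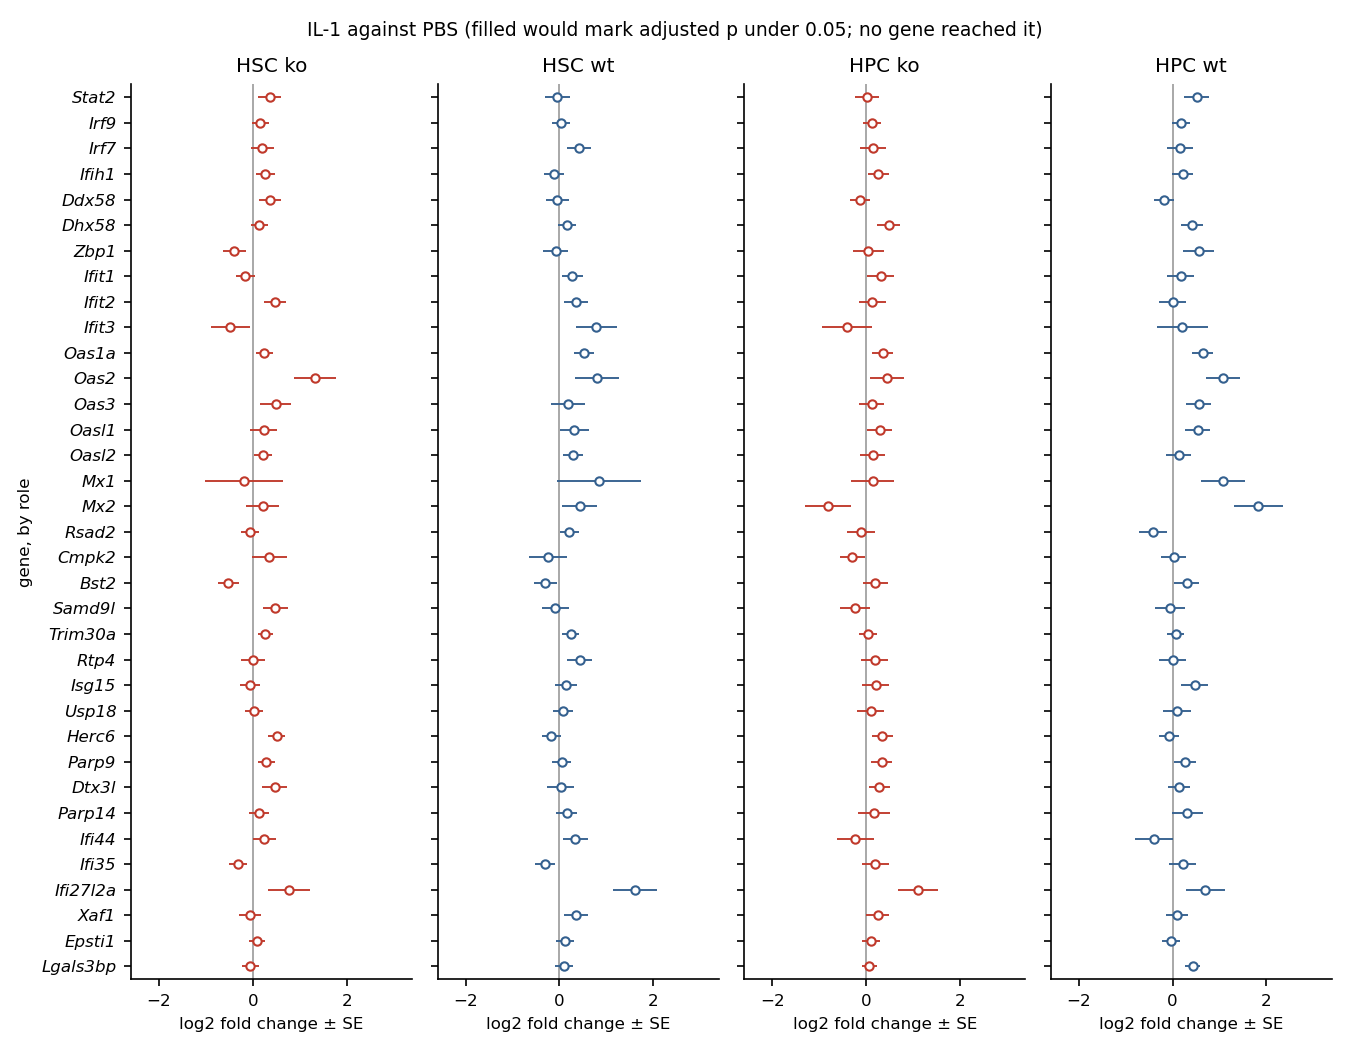
Log2 difference of IL-1 minus PBS with its SE for each of the 35 genes in ko HSC, wt HSC, ko HPC and wt HPC; a filled point would mark an adjusted p under 0.05, and none is filled. The medians lie between 0.14 and 0.21, and Ifi27l2a is positive in all 4. The fits shown use no replicate block.

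The module mean after IL-1 was 5.24 ± 0.19 in ko HSC, against 5.04 ± 0.10 after PBS (SD, n = 4 each), and 5.41 ± 0.09 in wt HSC (n = 3), against 5.22 ± 0.22 after PBS (n = 4). Both pairs overlapped. The wt IL-1 minus PBS difference was 0.19, and 0.21 without the library labelled HSC wt IL-1 replicate 1. In HPC it was 5.42 ± 0.38 after IL-1 and 5.32 ± 0.15 after PBS in ko, with overlap. In wt HPC the 3 IL-1 libraries, at 5.58, 5.70 and 5.39, all lay above the 3 PBS libraries, at 5.38, 5.37 and 5.06, a difference of 0.28. The nearest pair across the groups was 5.39 and 5.38.

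Ifi27l2a had the largest IL-1 difference of wt HSC, with 5.99, 11.1 and 10.7 CPM after IL-1 and 3.31, 0.791, 4.43 and 3.78 CPM after PBS. The groups did not overlap, and 1.61 ± 0.48 did not pass (edgeR adjusted p = 0.25). It passed with limma voom (2.08, adjusted p = 0.021), and without the library labelled HSC wt IL-1 replicate 1 it was 1.84 ± 0.51 (edgeR adjusted p = 0.18). In ko HPC it had 17.3, 49.3 and 51.4 CPM after IL-1 and 18.0, 19.8 and 17.0 CPM after PBS, so replicate 1 after IL-1 fell within the PBS range, and 1.11 ± 0.42 did not pass (edgeR adjusted p = 0.53). In ko HSC the smallest p was that of Oas2, with 4.01, 12.4, 11.9 and 6.18 CPM after IL-1 and 3.4, 1.66, 6.07 and 2.29 CPM after PBS. That difference, 1.33 ± 0.45, did not pass (edgeR adjusted p = 0.38). Without the library labelled HSC wt IL-1 replicate 1, 0 genes were called in wt HSC and the median was 0.21.

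Mx2 in wt HPC came closest. It had 3.25, 3.65 and 4.14 CPM after IL-1 and 0.779, 1.05 and 1.23 CPM after PBS, with no overlap. The difference was 1.83 ± 0.52 (edgeR adjusted p = 0.14). Same-numbered HPC libraries deviated together, and with replicate number as a block Mx2 passed (edgeR adjusted p = 0.032), as it did with no filter on low counts (0.030) and in DESeq2 (0.020). In ko HPC, Mx2 ran the other way, with 0.723, 1.41 and 3.88 CPM after IL-1 and 2.35, 3.24 and 5.01 CPM after PBS. The ko response minus the wt response was -2.64 ± 0.72, which did not pass (edgeR adjusted p = 1.0). Among the other genes of the pathway, Ly6a and Tmem173, which encodes the DNA-signalling adaptor STING, were higher after IL-1 in wt HPC by 1.25 ± 0.21 and 0.87 ± 0.17 (edgeR adjusted p = 0.0089 and 0.024). In wt HSC, Ifit1bl1, an IFIT relative, averaged 13.9 ± 6.75 CPM after IL-1 (n = 3) and 3.68 ± 1.13 CPM after PBS (n = 4), a difference of 1.94 ± 0.38 (edgeR adjusted p = 0.044), and 2.30 ± 0.35 without the library labelled HSC wt IL-1 replicate 1 (edgeR adjusted p = 0.0083).

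Markers of other cells moved with IL-1 in the same libraries. In wt HPC the 7 monocyte genes summed to 347 to 413 CPM after IL-1 and 85.1 to 122 CPM after PBS. Of these, 4 of 7 were called higher, where 0.702% of all genes were higher and 0.244% lower. The 10 plasmacytoid dendritic cell genes summed to 820 to 882 CPM after IL-1 and 511 to 631 CPM after PBS. Of these, 1 of 9 tested was called higher and 1 lower, so the called genes of that list went both ways. In ko HPC the plasmacytoid list summed to 861 to 920 CPM after IL-1 and 539 to 718 CPM after PBS. In wt HSC the plasmacytoid list summed to 250 to 310 CPM after IL-1 and 235 to 263 CPM after PBS, and 0 of 7 monocyte genes were called. Their part in the differences of the 35 genes was not tested.

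Between genotypes in the treated mice, edgeR called 0 of the 35 genes. Libraries with under 1 CPM of Y-linked genes were 3 of 4 in ko HSC and 1 of 4 in wt HSC after PBS, 3 of 4 in ko HSC and 0 of 3 in wt HSC after IL-1, 2 of 3 in both ko and wt HPC after PBS, and 2 of 3 in ko HPC and 1 of 3 in wt HPC after IL-1. With the Y-linked covariate the counts were also 0. After PBS, ko HSC against wt HSC gave 0 of 35 (0.798% of all genes), with 27 of 35 differences negative, a median of -0.22 and 3 of 35 at an unadjusted p under 0.05. Over all genes 50.9% of differences were positive, the median was 0.01 and 9.05% had an unadjusted p under 0.05. Herc6 had 28.4, 20.1, 23.5 and 18.4 CPM in ko and 39.8, 37.1, 25.6 and 33.1 CPM in wt, with overlap and a difference of -0.58 ± 0.19 (edgeR adjusted p = 0.23). After IL-1, ko HSC against wt HSC gave 0 of 35 (0% of all genes), with 6 at an unadjusted p under 0.05, led by Ifit1 at -0.58 ± 0.22 (edgeR adjusted p = 0.47). Without the library labelled HSC wt IL-1 replicate 1 the count was 0 of 35, where 0.932% of all genes were called. There, 4 had an unadjusted p under 0.05, and Ifit1 was at -0.65 ± 0.25 (edgeR adjusted p = 0.30). In HPC, 0 of 35 were called after PBS (0.257%) and 0 after IL-1 (0.201%), with 1 at an unadjusted p under 0.05 in each; DESeq2 called 1 after PBS. By edgeR the IL-1 response differed at the threshold between ko and wt for 0 of the 35 in HSC and 0 in HPC (0% of all genes called in each), and between wt HPC and wt HSC for 0 (0.0228%), with 1 at an unadjusted p under 0.05 in each of the 3. Without the library labelled HSC wt IL-1 replicate 1, the counts were 0 for ko minus wt in HSC and 0 for HPC minus HSC.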

How the data were processed

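Gene-level read counts were deposited by the authors in 1 table per experiment, and the whole-number counts were used as they are. Per the submitters' processing notes, STAR 3.0.4 and featureCounts 1.4.5 of Subread were used; genome build and strandedness were not given in the sources used here. Columns were assigned by title, and 0 stayed unassigned. The HSC libraries of experiment 2 were grouped as HSC after their titles, source names and descriptions, although the cell type entry reads HPCs. Symbols and coordinates come from GENCODE M21 (GRCm38), which holds 40340 of the 41388 gene IDs. The rest hold 0.143% (experiment 1) and 0.113% (experiment 2) of the reads. Gene positions are those of that annotation and of RefSeq (GRCm38.p6), not of the deposited counts.

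Comparisons were tested with edgeR 4.0.16 (R 4.3.3) by robust quasi-likelihood F tests on the deposited counts, after filterByExpr (minimum count 10, minimum total 15) and TMM scaling, with no replicate block. Comparisons within a population came from a fit of that population's libraries in that experiment. Steps between populations and differences between effects came from 1 fit per experiment of all its libraries, for 30 comparisons in all. The threshold was a Benjamini-Hochberg adjusted p of 0.05 over all genes tested. The scripts were tested on simulated data. Log2 differences are given with their SE, and the module mean uses a pseudocount of 1 CPM.

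The members, their roles, the pathway and marker lists and the rule for named genes were chosen with earlier results of these data known. That rule names the called members, up to 10 by smallest p per comparison, or up to 3 of smallest p where none is called, Stat2, Irf9, Irf7 and Kmt2c, and up to 4 called genes per pathway list; a further gene of the rule is not reported here. Genes outside the rule are said to have been singled out after their values were seen. Alternatives were DESeq2 1.42.0, RLE scaling, no filter, replicate number as a block, limma 3.58.1 voom with sample weights, all libraries in 1 fit or the contrast's groups alone, a Y-linked covariate and each library left out in turn. Xist as a covariate and the steps in het and ko libraries were added after seeing the data. Deviations of same-numbered libraries correlated at 0.10 or more in every pair of wt HPC and HSC untreated (0.100 to 0.280), HPC wt IL-1 and PBS (0.171 to 0.334), HPC ko IL-1 and PBS (0.163 to 0.270) and HPC ko and wt after IL-1 (0.307 to 0.554), so the numbers may pair the libraries there. The main tests of these comparisons used no block and so treated the libraries as unpaired. Only the alternative with replicate number as a block took the numbers as pairs.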

Additional observations from a re-analysis of the deposited data

Results flagged for a closer look

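In 93 sets of group values examined, 5 held a library far from the rest of its group, and chance gives about 1 in 20. The module mean of GMP wt replicate 1 was 3.03, against 3.48 to 3.51 in the other 3 wt GMP libraries, and Epsti1 had 7.87 CPM in the same library, against 11.8 to 12 CPM. The module mean of pGM het replicate 3 was 4.49, against 4.67 to 4.69 in the others. Ifit1 had 11.4 CPM in pGM wt replicate 2, against 8.45 to 8.83 CPM, and Bst2 had 145 CPM in HPC wt replicate 2, against 118 to 119 CPM.

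The ko minus wt difference of Epsti1 was larger in GMP than in HSC by 1.19 on the log2 scale, by a test of the difference itself in 4 libraries per group (edgeR adjusted p = 0.013). It did not pass in the fit of those 4 groups alone (edgeR adjusted p = 0.077). Levels of the 4 ko GMP libraries were all above those of the 4 wt GMP libraries, while the HSC libraries overlapped.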

How the results depend on the processing

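Counts of called members and module differences were recomputed for 54 comparisons and differences under 769 alternatives, of which 717 stayed close and 52 moved. A change of sign was scored only for the log2 differences of the named genes, where 0 reversed. The counts of called members in this section are given without the share of all genes called under the same setting. A change in count therefore cannot be set against that share. The steps in het and ko libraries are the exception, and their shares are given above. With DESeq2 the count was 1 for HPC ko against wt, 3 for pGM ko against wt, 3 for GMP ko against wt, 1 for GMP ko against het, 3 for the GMP minus HSC difference, 1 for HPC wt IL-1 and 1 for HPC ko against wt after PBS. With voom it was 3 for GMP ko against wt, 10 for wt HPC against HSC, 1 for the pGM minus HSC difference and 1 for HSC wt IL-1. With the Y-linked covariate it was 0 for pGM and 0 for GMP ko against wt, and with Xist 0 for GMP. With all libraries in 1 fit it was 0 for pGM ko against wt, 2 for GMP ko against wt, 1 for GMP het against wt and 1 for GMP ko against het. With the contrast's groups alone it was 7 for wt HPC against HSC, 0 for the GMP minus HSC difference and 1 for wt HPC against HSC after PBS. In het libraries wt HPC against HSC gave 1 in place of 4 and in ko libraries 9, or 1 after PBS. Without the filter it was 1 for HPC wt IL-1 and 1 for wt HPC against HSC after PBS.

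With replicate number as a block the count was 0 for GMP ko against wt, 1 for HPC wt IL-1, where same-numbered libraries deviated together, and 4 for wt HPC against HSC after PBS. The block changed no other count by over 1.5 times. Leaving out 1 library gave 0 to 1 for pGM ko against wt and for GMP ko against wt, 2 to 7 for wt HPC against HSC, 13 to 16 for pGM against HPC, 21 to 25 for GMP against pGM, 1 to 2 for the GMP minus HSC difference and 1 to 2 for wt HPC against HSC after PBS. With a pseudocount of 0.1 CPM the module difference of GMP minus pGM was -1.47. The cause of these shifts was not tested. Of the 35 genes, 4 had too few reads to be tested in the fit of GMP libraries.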

Other observations

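Levels of the 35 genes also moved with sex-linked RNA within groups, an observation made after seeing the data. In a fit of all 48 libraries of experiment 1 with the groups kept, the coefficient on Y-linked expression was negative for 35 of 35 genes, while it was positive for 54.1% of all genes. In the 27 libraries of experiment 2 it was again negative for 35 of 35, against 49.6% of all genes with a positive one. The coefficient on Xist was positive for 34 of 35 in each experiment. In experiment 1 the only libraries under 1 CPM of Y-linked genes were ko replicates 1 and 4 of each population. The Y-linked coefficient there rests largely on these against ko replicates 2 and 3. The labels do not say whether same-numbered libraries came from the same mice, so the counts by population may not be separate. By population, the Y-linked coefficient was negative for 33 of 35 genes in HSC, 29 of 35 in HPC, 16 of 35 in pGM and 24 of 31 in GMP of experiment 1, and for 30 of 35 in HSC and 31 of 35 in HPC of experiment 2. No single gene passed the threshold for the Y-linked covariate (edgeR, 11 and 12 of 35 at an unadjusted p under 0.05 in the 2 fits of all libraries), and Ifi44 passed for Xist in experiment 2. The labels give no sex. In experiment 1, 10 of 16 wt, 5 of 16 het and 2 of 16 ko libraries held over 1 CPM of both Xist and Y-linked genes. In experiment 2, 2 of 13 wt libraries did.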
